A study of Mus musculus with 18 samples.

Results

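Ligated muscle was compared with intact muscle in mice with an induced skeletal muscle deletion of Bmal1, the activator of the circadian clock that the gene tables list as Arntl. The comparison holds 9 of the 18 libraries of the study, 5 from intact and 4 from ligated limbs of the group labelled BKO, all from tibialis anterior, the muscle on the front of the shin. Its members were taken by their group names, without use of any measured value. Earlier results of these data were known when the members and the gene lists were chosen. It was described across the 12262 of 20922 genes with a mean of at least 10 normalized counts over the 18 libraries, and the other 8660 genes were not tested. The study asked, per its title and design, how loss of the muscle clock bears on limb perfusion and on muscle pathology after the artery of a hindlimb is closed.

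The mice of all 4 groups carried floxed Bmal1 alleles and the ACTA-rtTA-TRE-Cre transgene background, in which the ACTA promoter, active in skeletal muscle fibres, drives a doxycycline-dependent activator of Cre. Doxycycline was given by oral gavage on 3 days, and 1 femoral artery was tied a week after the last dose. Both tibialis anterior muscles were taken at day 36 after surgery, so the intact muscle is the contralateral limb of an operated mouse and not the muscle of an unoperated one. The labels give the Cre genotype in the reverse of what the group names imply, +/+ for the control group (WT) and -/- for the knockout group, so the genotype of each library rests on its group name. Cells other than muscle fibres are expected to keep Bmal1 in this design, and the labels state no age, sex or time of day of collection. The 5 WT intact and 4 WT ligated libraries were used for the test of whether the effect of ligation differed between the genotypes.

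BMAL1 pairs with CLOCK and binds E-box sequences to activate the Per, Cry, Nr1d1 and Dbp genes, whose products then restrain the pair. In muscle this oscillator also times genes of fuel use. A tibialis anterior deprived of its arterial supply loses fibres and rebuilds them from satellite cells, while macrophages clear debris, fibro-adipogenic progenitors lay down matrix or turn into fat cells, and vessels remodel.

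Arntl itself was read first, as the check of the labels. It lies at chr7:113207465-113314126 on build GRCm38. It stood at 46.2, 49.5, 50.2, 61.1 and 42.4 normalized counts in the 5 intact libraries labelled BKO and at 81.95, 63.8, 69.5 and 64.7 in the 4 ligated ones. All ligated values lay above all intact ones. On the log2 scale, here and below, ± gives the standard error of the fit, and beside counts and shares the SD. The log2 fold change was 0.48 ± 0.18 (adjusted p = 0.0291, limma with Benjamini-Hochberg adjustment, as throughout). That call was lost in 4 of the 9 fits that left out 1 BKO library (intact 1, intact 5, ligated 2 or ligated 5), with adjusted p up to 0.0941, and without ligated 4 and 5 together (0.076). In the WT libraries Arntl stood at 56.3 ± 11.8 in intact and 16.2 ± 2.72 in ligated muscle (mean ± SD, n = 5 and 4), and the ligation effect differed between genotypes by 2.21 ± 0.25 on the log2 scale (adjusted p = 8.74e-05). The gene-level count of Arntl was higher in the 4 ligated libraries labelled BKO than in the 4 ligated WT ones. It includes reads from exons outside the deleted part, the labels do not name the deleted exon, and fibre nuclei share the muscle with other cells, so this count does not check the label. Among genes that BMAL1 activates, Dbp stood at 205 ± 24.6 in BKO intact and 721 ± 84.8 in WT intact muscle, and Nr1d1 at 322 ± 54.4 and 877 ± 167. Ligated against intact within the BKO group does not rest on the genotype label, while every difference from WT does. No test was made between the genotypes within a limb.

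Of the 14 genes listed as BMAL1-CLOCK targets, 5 were higher (2 without ligated 4 and 5) and 1 lower in ligated BKO muscle, where 22.1% and 25.1% of all genes tested were higher and lower. Per1, a repressor arm gene of the clock, rose from 136 ± 32.8 to 301 ± 33.5 normalized counts (log2 fold change 1.16 ± 0.14, adjusted p = 1.09e-06), and in WT it stood at 548 ± 38.6 and 535 ± 78.2 (difference of the effects 1.21 ± 0.19, adjusted p = 0.00198). Its BKO values in both limbs stayed below both WT means. Per2 rose from 97.8 ± 20.4 to 169 ± 35.3 (log2 fold change 0.78 ± 0.15, adjusted p = 2.00e-04), with an overlap of the groups. Tef, an output transcription factor, fell (log2 fold change -0.56), and of the REV-ERB-repressed genes Rora fell (-0.53) and Clock (-0.37). The promoter of Per1, from 250 bases before to 50 after the start (RefSeq, GRCm38.p6, chr11:69098699-69098998, plus strand), holds 1 E-box, CACGTG, shown in capitals because it is the sequence that the deleted factor and CLOCK are known to bind.
Per1: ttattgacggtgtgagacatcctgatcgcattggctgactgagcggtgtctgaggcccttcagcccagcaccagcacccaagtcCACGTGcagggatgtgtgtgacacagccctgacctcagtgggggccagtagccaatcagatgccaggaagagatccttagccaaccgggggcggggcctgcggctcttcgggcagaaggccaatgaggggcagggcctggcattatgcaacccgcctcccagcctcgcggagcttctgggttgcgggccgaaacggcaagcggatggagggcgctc
CACGTG, which reads the same on both strands, occurred in 11.9% of the 9173 tested genes with a promoter in the table, in 10.1% of the genes that were higher in ligated BKO muscle and in 12.9% of those that were lower.

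The BKO libraries held 17.4 to 25.6 M reads (M for mega), and a difference in depth between limbs did not pass (exact two-sided permutation p = 0.683). They differed in what the reads were. The mitochondrial ribosomal RNA mt-Rnr2 took 33.6 to 36.1% of the reads in the intact libraries and 40.9 to 55.5% in the ligated ones, highest in ligated 4 (51.9%) and ligated 5 (55.5%). The share of the 13 mitochondrially encoded protein genes was 7.77% ± 0.493 intact and 3.92% ± 0.372 ligated. Both differences have an exact two-sided permutation p of 0.00794, the smallest that 5 against 4 libraries can give. For the gene lists, the numbers of members higher or lower without ligated 4 and 5 are given below where they differ by over 1.5 times. Whether the mt-Rnr2 share had a part in other results was not tested. Markers of the labelled tissue were present, with the 14 fast fibre genes summing to 1232000 to 1461500 normalized counts in intact and 1104300 to 1194200 in ligated BKO libraries, and none of the skin markers passed the filter on low values. In bulk RNA, fewer cells of a type and less RNA per cell cannot be told apart.

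Ligation changed 5790 of the 12262 genes in BKO muscle (47.2%), 2713 of them higher (22.1%) and 3077 lower (25.1%) at an adjusted p under 0.05. The median change over all genes tested was -0.00357 on the log2 scale. The median change was 0.80 among the genes that rose and -0.59 among those that fell, on the same scale. At least 2-fold, 889 genes were higher (7.25%) and 451 lower (3.68%), and at least 8-fold, 45 were higher and 25 lower. The groups did not overlap for 1967 genes that were higher (16%) and 2413 that were lower (19.7%). Among abundant genes more fell than rose: of the 773 genes with a mean over 1000 normalized counts, 17.9% rose and 54.2% fell, while of the 2345 genes under 30, 22.2% rose and 7.55% fell. Of those under 30, 520 rose with all libraries and 271 without ligated 4 and 5. The first principal component held 54.1% of the variance among the 9 libraries and separated the limbs. Without ligated 4 and 5, 1810 genes were higher and 2240 lower.

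**Figure D1:**
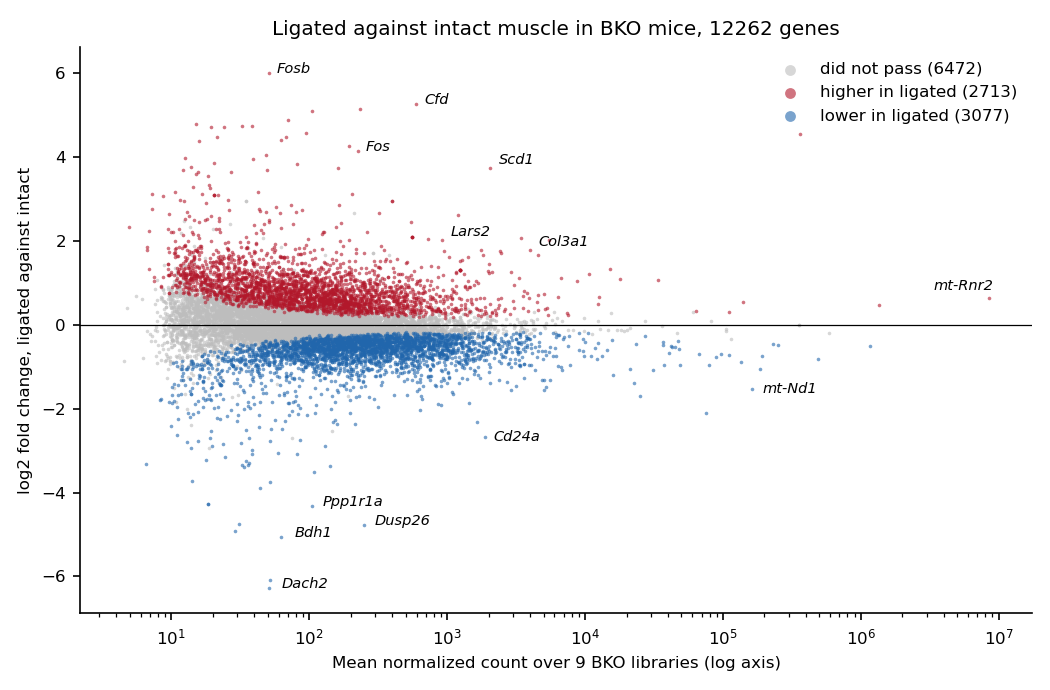
Each point is 1 of the 12262 genes tested, placed by its mean normalized count over the 9 BKO libraries (x, log axis) and its log2 fold change in ligated against intact muscle (y). Red points (2713) passed higher, blue points (3077) passed lower; most points far from 0 sit at low and middle levels, apart from the gene ENSMUSG00000045999 at upper right, and blue points prevail above 1000 normalized counts.

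The largest rises belonged to immediate early transcription factors and to fat. Fosb, an AP-1 subunit, stood at 0, 2.11, 0, 1.67 and 0.848 normalized counts in the intact libraries and at 108, 112, 151 and 81.6 in the ligated ones (log2 fold change 6.01 ± 0.62, adjusted p = 2.21e-07). Its partner Fos stood at 17.8, 22.1, 26.6, 29.3 and 33.9 and at 449.7, 544, 521 and 375 (log2 fold change 4.15 ± 0.25, adjusted p = 4.52e-10). No ligated value of either gene came near an intact one. Of the 19 immediate early genes tested, 14 were higher and 0 lower (median log2 fold change 1.000 in BKO and 0.51 in WT). Egr1, a growth-response zinc finger factor, rose from 44.6 ± 17.01 to 315 ± 68.8, Junb from 48.9 ± 15.2 to 221 ± 22.02, Ier2 from 15.7 ± 5.02 to 85.7 ± 15.3 and Jund from 94.7 ± 18.4 to 239.8 ± 5.58. The rise of Fos was larger in BKO than in WT (difference 1.31 ± 0.35, adjusted p = 0.0313, lost in 8 of 18 fits without 1 library, with p up to 0.068), and 4 of the 19 had a difference between genotypes that passed. The AP-1 sequence TGACTCA, or TGAGTCA on the other strand, was found in the promoters of 6.36% of the genes at least 2-fold higher, 5.84% of those at least 2-fold lower and 4.4% of all.

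Of 13 adipocyte markers tested, 12 were higher and 0 lower (median log2 fold change 2.87). Their summed level was 4979 to 6056 normalized counts in intact and 10462 to 16226 in ligated muscle, and no marker was at 0 in all BKO libraries. Cfd (adipsin), a serine protease that fat cells secrete, stood at 15.1, 40.03, 61.04, 17.6 and 31.4 intact and 1275, 2198, 1127 and 573 ligated (log2 fold change 5.27 ± 0.40, adjusted p = 4.76e-09). The hormone gene Adipoq stood at 0.889, 8.43, 7.88, 4.19 and 6.78 intact and 212, 404, 224 and 78.05 ligated (log2 fold change 5.10 ± 0.54, adjusted p = 3.20e-07). Both genes were low in every intact muscle and varied several-fold among the ligated ones. Plin1 and Cidec, coat proteins of the fat droplet, rose by 4.89 and 3.82 on the log2 scale, and the hormones Retn and Lep by 4.71 and 3.64. The adipogenic factors Cebpa and Pparg rose by 2.87 and 1.97 (log2). Of the 18 lipogenesis genes tested, 10 rose and 4 fell. Scd1, the stearoyl-CoA desaturase, stood at 209, 438, 328, 237 and 304 intact and 5557, 5553, 3859.7 and 1944 ligated (log2 fold change 3.73 ± 0.31, adjusted p = 1.10e-08). Fasn, the fatty acid synthase, rose from 185 ± 69.8 to 996 ± 369.7, Acly from 98.9 ± 22.9 to 235 ± 32.1 and Thrsp from 47.8 ± 6.91 to 229 ± 44.4. Other genes among the 25 largest rises are known from fat or liver: Pck1 of glyceroneogenesis rose by 4.57 (log2), haptoglobin (Hp) by 4.48, the cysteine dioxygenase Cdo1 by 4.40, Cyp2e1 by 4.27, the amine oxidase Aoc3 by 2.74 and the acetoacetyl-CoA synthetase Aacs by 2.51. Of these 6, none had a difference between genotypes that passed.

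Most matrix genes that changed were higher. Of 33 collagen genes tested, 22 were higher and 0 lower (median 1.09). Col3a1, a fibrillar collagen of loose matrix, stood at 2049, 1915, 1513, 1882 and 2071 intact and 5365, 6779.8, 5238 and 9059.7 ligated (log2 fold change 1.78 ± 0.15, adjusted p = 1.16e-08). Col1a1, the main collagen of scar and tendon, rose from 834 ± 52.2 to 2924 ± 542, and Col4a1, of basement membranes, from 1212 ± 171 to 3976 ± 530.4 (log2 fold change 1.71 ± 0.11, adjusted p = 1.15e-09). Of 37 proteoglycans and matricellular proteins, 22 rose and 0 fell. Sparc rose by 1.25 (log2), elastin (Eln) by 1.96, the TGF-beta activator Thbs1 by 1.83 and Ccn2, a growth factor of fibrosis, by 1.79. Periostin (Postn) rose from 42.1 ± 12.4 to 152 ± 53.6, and Cilp, a matrix protein of cartilage and scarred muscle, from 371 ± 173 to 2241 ± 869.

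Of 14 laminins, nidogens and perlecan, 11 rose, with perlecan (Hspg2) at a log2 fold change of 1.11 and Nid2 at 1.02. The 1 that fell was Lamc3, from 31.3 ± 8.17 to 4.15 ± 2.23. The list of matrix proteases, inhibitors and crosslinkers held 26 higher and 2 lower genes of 41, with the crosslinker Loxl2 at a log2 fold change of 1.22, the collagen chaperone Serpinh1 at 0.90 and the gelatinase Mmp2 at 0.90. Integrins split: Itga5, a fibronectin receptor chain, rose by 1.27 and the laminin receptor chain Itga7 by 0.87, while Itga4 fell (log2 fold change -1.44). Of 11 markers of fibro-adipogenic progenitors, 5 rose, with summed levels of 3548 to 6497 intact and 6996 to 9214 ligated that gelsolin (Gsn, 3934 ± 881 and 6456 ± 851) dominates. Pdgfra, which defines these cells, rose from 255 ± 46.2 to 349.6 ± 68.5 with an overlap of the groups (adjusted p = 0.0119, and 0.0525 without ligated 4). Of 9 tendon markers 6 rose, with summed levels of 723 to 985 and 1416 to 2188; tenomodulin (Tnmd), their defining gene, went from 11.2 ± 5.07 to 43.7 ± 26.3 (adjusted p = 9.63e-04).

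Vessel genes were higher. Of 19 endothelial markers 16 rose and 0 fell, with summed levels of 4695 to 5599 normalized counts intact and 7746 to 10059 ligated. Pecam1, an adhesion protein of endothelial junctions, stood at 455, 568, 434, 527 and 397 intact and 808, 1017, 1061 and 1111 ligated (log2 fold change 1.07 ± 0.12, adjusted p = 5.89e-07). Esam rose by 1.17 (log2), Tie1 by 1.16, the junction protein Cldn5 by 1.61 and the nitric oxide synthase Nos3 by 1.02. Without ligated 4 and 5, 11 of the 19 passed. Of 12 artery and vein markers 11 rose. The apelin receptor Aplnr, found on veins and sprouting vessels, stood at 48.01, 56.9, 41.4, 64.5 and 69.5 intact and 269.8, 312, 291 and 264 ligated (log2 fold change 2.34 ± 0.19, adjusted p = 8.30e-09). The arterial ligand Efnb2 rose by 1.33 (log2), its venous receptor Ephb4 by 0.85, Jag1 by 0.86, Cxcr4 by 1.73 and the arterial connexin Gja5 by 1.71.

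Among smooth muscle and pericyte markers, 6 of 13 rose and 2 fell (median log2 fold change 0.21). Their summed levels overlapped, at 25683 to 28381 normalized counts intact and 27447 to 29148 ligated. The pericyte genes Pdgfrb, Cspg4 and Notch3 rose by 1.22, 1.16 and 1.52 (log2). Of the 14 angiogenic factors, 4 rose and 3 fell (28.6% and 21.4%), near the 22.1% and 25.1% of all genes tested. Vegfa stood at 1412 ± 154 and 1522 ± 162 and did not pass (adjusted p = 0.508). Fgf1 fell from 459 ± 59.8 to 204 ± 37.6 and Angpt1, which steadies vessels, from 167 ± 19.7 to 86.2 ± 14.04, while Apln rose from 17.3 ± 4.92 to 40.5 ± 7.85 and Pdgfb from 88.7 ± 12.5 to 143 ± 9.81. Of 15 hypoxia response genes 3 rose and 4 fell (20% and 26.7%), also near the shares over all genes. Among them the pyruvate dehydrogenase kinase Pdk1 fell (log2 fold change -0.98) and Bnip3 (-0.45), and the oxygen-sensing factor Epas1 rose by 0.62.

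**Figure D2:**
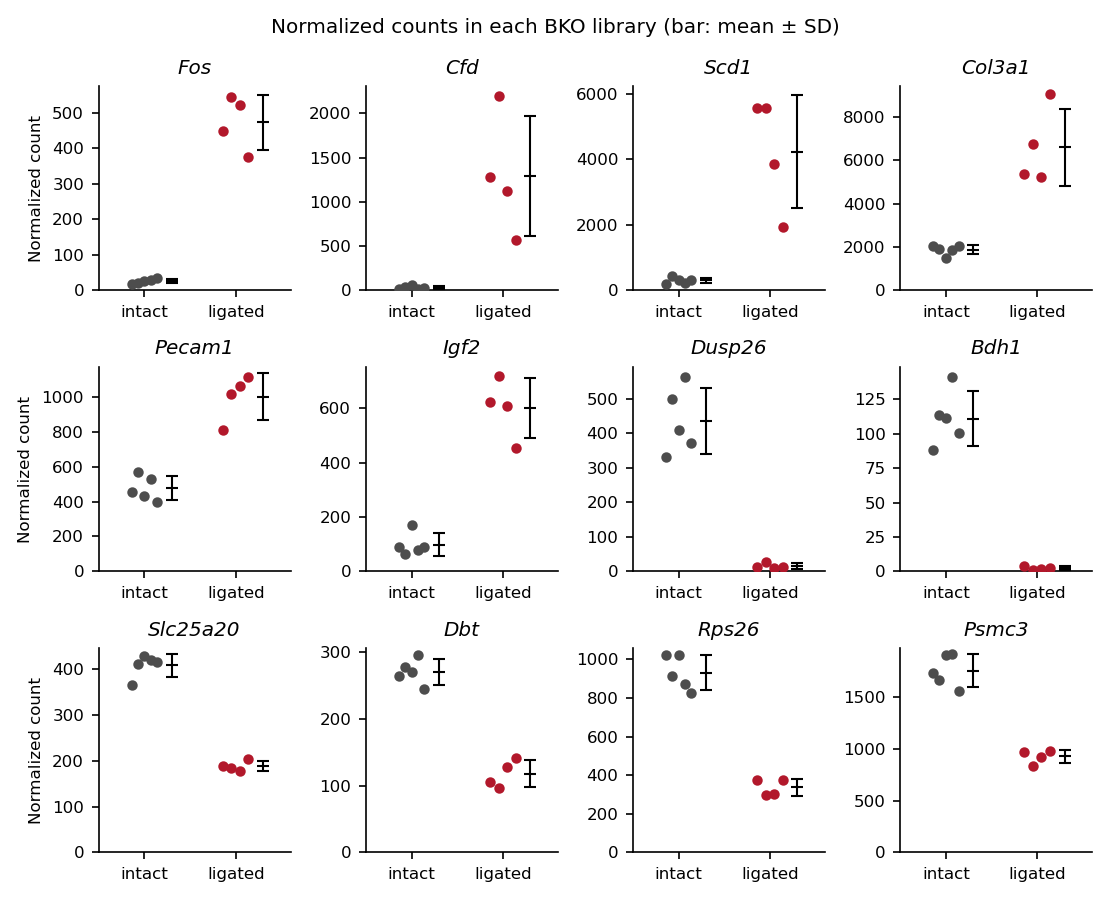
Normalized counts (y, linear, from 0) of 12 genes in the 5 intact (grey) and 4 ligated (red) BKO libraries, with mean ± SD beside the points. Fos, Cfd, Scd1, Col3a1, Pecam1 and Igf2 are higher and Dusp26, Bdh1, Slc25a20, Dbt, Rps26 and Psmc3 lower in ligated muscle, with no overlap in any of the 12.

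Of 13 macrophage markers, 2 rose and 1 fell, against 8 and 1 in WT, and 0 rose without ligated 4 and 5. The fits without intact 3, ligated 4 or ligated 6 alone also left 0 that rose. Lyz2, a lysozyme of myeloid cells, went from 193 ± 68.4 to 280.2 ± 75.97 with an overlap (adjusted p = 0.0226, up to 0.0899 without 1 of those 3 libraries). Its ligation effect was smaller than in WT (difference -0.96 ± 0.28, adjusted p = 0.0423, lost in 13 of 18 fits without 1 library, with p up to 0.0918). Cd163, the haemoglobin scavenger receptor of resident macrophages, fell from 57.3 ± 12.9 to 16.6 ± 3.84 (log2 fold change -1.72 ± 0.23, adjusted p = 3.92e-06). The summed macrophage level was 488 to 989 in intact and 734 to 1110 in ligated muscle. Of 7 MHC class II genes 1 rose in BKO, H2-DMb1 (adjusted p = 0.00782, and 0.12 without ligated 4 and 5), against 6 in WT. Cd74, the invariant chain, stood at 299.6, 303, 170.3, 191 and 655 intact and 352, 404, 352 and 518 ligated, with the highest value in intact 5 (adjusted p = 0.125). Intact 5 stood apart in these genes: without it Cd74 passed (log2 fold change 0.78, adjusted p = 0.000981), as did 6 of the 7 class II genes and 11 of 19 class I and antigen processing genes, of which 6 passed with all libraries and 2 without ligated 4 and 5. For none of the 7 class II genes did the difference between genotypes pass.

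Of the 18 T, B and NK cell markers, 2 passed the filter on low values. Ighm, the heavy chain constant gene of IgM, stood at 3146, 3062, 2948, 1751 and 1705 intact and 659.6, 590.2, 242 and 611 ligated (log2 fold change -2.31 ± 0.28, adjusted p = 1.38e-06), with the groups apart. Of 39 interferon-stimulated genes 14 rose (9 without ligated 4 and 5), among them Ifi27l2a from 6.75 ± 2.94 to 50.4 ± 17.4 and the RNA sensor gene Ddx58 from 40.1 ± 10.3 to 92.3 ± 11.8. Irf5 fell from 147 ± 40.2 to 44.6 ± 15.5. Of 18 complement genes 6 rose (3 without ligated 4 and 5), C4b by 1.26, and C3 fell from 757 ± 243 to 299 ± 74.2 (log2 fold change -1.32 ± 0.23, adjusted p = 7.70e-05). Ccrl2, a chemerin-binding receptor, fell from 128 ± 20.9 to 31.6 ± 4.56, and further than in WT (difference -1.25 ± 0.26, adjusted p = 0.00901). Schwann cell markers summed to 378 to 522 intact and 372 to 525 ligated, and of 7 tested 0 rose and 1 fell (the myelin gene Mbp, 90.3 ± 12.2 to 53.6 ± 13.6). Red cell markers summed to 2330 to 4097 intact and 1897 to 2319 ligated.

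The largest falls were in genes of several kinds, and the immunoglobulin gene Ighm, given above, was among them. In which cells these genes fell was not tested. Dach2, a repressor that denervation relieves in muscle, stood at 88.02, 96.9, 80.7, 92.1 and 97.5 in intact and at 0, 0, 1.02 and 0 in ligated libraries (log2 fold change -6.27 ± 0.52, adjusted p = 1.11e-08). Bdh1, the mitochondrial enzyme that interconverts the ketone bodies, stood at 88.02, 114, 111, 141 and 101 and 3.998, 1.23, 2.04 and 2.66 (log2 fold change -5.05 ± 0.43, adjusted p = 1.49e-08). Dusp26, a dual-specificity phosphatase, stood at 331, 498, 409, 563 and 371 and 12.99, 27.00, 9.19 and 14.2 (log2 fold change -4.77 ± 0.21, adjusted p = 6.39e-12). Dach2 had 1 read in the 4 ligated libraries together against 498 in the 5 intact ones, a ratio per size factor of 358 with a 95% exact interval from 63.9 to 14150 that covers counting error only. Dach2 and Bdh1 were close to 0 in every ligated muscle, and Dusp26 was low but detected in each. The fall of Dusp26 was larger than in WT (difference -1.73 ± 0.30, adjusted p = 0.00342). Ppp1r1a, an inhibitor of protein phosphatase 1, fell from 181 ± 12.5 to 9.82 ± 5.48, the peptide transporter family gene Slc15a5 from 182 ± 43.1 to 15.1 ± 4.07, and the cytochrome P450 gene Cyp4f39 from 237 ± 38.5 to 23.1 ± 8.91. Cd24a, a surface glycoprotein, fell from 3026 ± 226 to 477 ± 55.8, and further than in WT (difference -0.70 ± 0.14, adjusted p = 0.00674).

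Others among the 25 largest falls act at the membrane or in signalling. The calcium channel subunit gene Cacng7 fell (log2 fold change -3.09), the scaffold Homer2 (-2.89), the kainate receptor partner Neto2 (-2.78) and the potassium channel gene Kcng4 (-2.36). The secreted peptide osteocrin (Ostn) fell (log2 fold change -2.74), the GTPase Rhou (-2.32), Tspan8 (-2.36), the mitotic kinase Aurka (-2.49), the arginine deiminase Padi2 (-2.04), the mitochondrial fission gene Gdap1 (-2.13) and the carbonyl reductase Cbr2 (-2.10). Amy1, an amylase, fell from 239 ± 37.2 to 48.8 ± 6.40. Among these, differences from WT passed for Cacng7, Homer2, Tspan8 and Amy1. Those of Cacng7 and Tspan8 were lost in 5 and 4 of the 18 fits without 1 library (adjusted p up to 0.0661 and 0.0714).

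Genes that burn fat and branched-chain amino acids fell together in ligated BKO muscle. Of 20 fatty acid oxidation genes 16 fell and 1 rose, with a median log2 fold change of -0.63 in BKO and 0.04 in WT, against -0.00357 over all genes tested. Their summed level was 24848 to 27528 in intact and 15900 to 19265 in ligated libraries. Slc25a20, the carnitine-acylcarnitine carrier, stood at 365, 412, 428, 421 and 415 intact and 189, 185, 179 and 205 ligated (log2 fold change -1.10 ± 0.12, adjusted p = 4.24e-07). Cpt2, the inner carnitine palmitoyltransferase, stood at 659.7, 619, 576, 499 and 633 and 346, 205, 253 and 284 (log2 fold change -1.15 ± 0.17, adjusted p = 1.37e-05). No ligated value of either gene reached an intact one. The medium-chain dehydrogenase Acadm fell from 3479 ± 299 to 1840.2 ± 279, the short-chain dehydrogenase Acads from 410.1 ± 33.05 to 257 ± 18.3, the electron carrier Etfdh from 1649 ± 149 to 829.7 ± 109.7 and the dienoyl-CoA reductase Decr1 from 903 ± 48.9 to 466 ± 71.1. Cpt1b, the outer carnitine palmitoyltransferase of muscle, fell from 3119 ± 331 to 2004 ± 344 (adjusted p = 9.81e-05).

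In 12 of the 20 the effect of ligation was lower in BKO than in WT at an adjusted p under 0.05, where 2.97% of all genes were. Without ligated 4 and 5 this held for 7, and with a transcript length trend removed for 10; 15 of the 20 still fell without the 2 libraries. Slc25a20 was among them, with a difference of -1.03 ± 0.17 (adjusted p = 0.00229), as were Etfdh (-0.73 ± 0.17) and the very-long-chain dehydrogenase Acadvl (-0.78 ± 0.16). In WT Slc25a20 stood at 369.5 intact and 345 ligated.

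Of 20 genes of branched-chain amino acid breakdown 15 fell and 2 rose (median -0.51 in BKO and -0.058 in WT). Dbt, the core of the branched-chain ketoacid dehydrogenase, stood at 264, 278, 269.8, 296 and 244 intact and 105, 96.9, 129 and 142 ligated (log2 fold change -1.20 ± 0.12, adjusted p = 9.22e-08). Its E1 subunit Bckdha fell from 1128 ± 69.4 to 748 ± 61.8, where WT went from 730.3 to 908 (difference -0.90 ± 0.12, adjusted p = 4.79e-04). Both regulators of that complex fell as well, the phosphatase Ppm1k from 302 ± 33.1 to 186 ± 15.3 and the kinase Bckdk from 1314 ± 100.02 to 973 ± 170.4 (adjusted p = 0.0015, and 0.0942 without ligated 4 and 5). The propionyl-CoA carboxylase subunit Pccb fell (log2 fold change -0.60) and the methylmalonyl-CoA mutase (Mut) (-0.55). Differences between genotypes passed as lower for 10 and higher for 1 of the 20, and without ligated 4 and 5 as lower for 7.

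The sequence AGGTCA, the half-site read by PPAR, ERR and other nuclear receptors, was counted on both strands of the same 300-base promoters. It occurred in 14.9% of all tested genes with a promoter, in 16.8% of those that fell and 13.8% of those that rose, in 21.1% of the genes at least 2-fold lower, and in 22.3% and 12.9% of the genes whose ligation effect was lower or higher in BKO than in WT. A match is a description of the letters and not a binding site. Promoters of 4 genes of fuel use that fell are shown with the half-site (AGGTCA, or TGACCT where it lies on the opposite strand) in capitals (RefSeq, GRCm38.p6). They are the uncoupling protein gene Ucp3 (chr7:100472741-100473040, plus strand), the carrier gene Slc25a34 (chr4:141623785-141624084, minus strand), Acadm (chr3:153944594-153944893, minus strand) and Ppm1k (chr6:57535438-57535737, minus strand).
Ucp3: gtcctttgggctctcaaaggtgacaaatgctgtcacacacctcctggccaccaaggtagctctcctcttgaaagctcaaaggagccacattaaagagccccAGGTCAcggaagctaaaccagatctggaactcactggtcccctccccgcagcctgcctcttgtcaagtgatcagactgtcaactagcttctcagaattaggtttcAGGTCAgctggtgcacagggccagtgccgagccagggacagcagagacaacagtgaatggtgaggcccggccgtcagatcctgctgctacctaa
Slc25a34: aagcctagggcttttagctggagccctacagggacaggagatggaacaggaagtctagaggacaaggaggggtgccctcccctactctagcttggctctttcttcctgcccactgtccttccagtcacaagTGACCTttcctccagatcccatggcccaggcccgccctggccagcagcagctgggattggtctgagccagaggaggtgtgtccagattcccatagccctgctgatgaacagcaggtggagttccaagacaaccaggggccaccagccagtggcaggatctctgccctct
Acadm: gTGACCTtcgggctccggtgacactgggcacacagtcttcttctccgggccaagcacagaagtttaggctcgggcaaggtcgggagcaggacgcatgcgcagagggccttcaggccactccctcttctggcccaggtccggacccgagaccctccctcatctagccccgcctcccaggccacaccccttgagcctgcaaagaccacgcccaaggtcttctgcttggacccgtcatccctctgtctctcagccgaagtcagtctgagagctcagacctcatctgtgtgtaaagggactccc
Ppm1k: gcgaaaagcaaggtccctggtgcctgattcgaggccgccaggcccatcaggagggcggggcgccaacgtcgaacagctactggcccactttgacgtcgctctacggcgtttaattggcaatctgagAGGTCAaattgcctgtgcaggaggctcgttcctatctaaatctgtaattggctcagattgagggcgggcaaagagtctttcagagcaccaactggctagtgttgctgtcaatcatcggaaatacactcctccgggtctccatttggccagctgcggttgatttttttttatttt
Ucp3 fell from 1212 ± 218 to 564 ± 95.9 (log2 fold change -1.10 ± 0.17, adjusted p = 2.85e-05). Slc25a34 stood at 107, 235, 190.02, 159 and 153 intact and 35.98, 28.2, 38.8 and 49.7 ligated (log2 fold change -2.10 ± 0.27, adjusted p = 3.71e-06), where WT went from 77.5 to 55.2 (difference -1.72 ± 0.39, adjusted p = 0.0136). Of the receptors and coactivators that act in this network, Ppargc1a fell from 684 ± 102 to 288 ± 88.7, Esrrg from 216 ± 42.3 to 109 ± 38.7, Esrrb from 63.1 ± 11.4 to 7.17 ± 1.52 and Rxrg from 319 ± 33.3 to 151 ± 31.04, while Ppard rose from 85.1 ± 5.23 to 133 ± 16.6. The AMPK subunit Prkab2 fell from 3223 ± 339 to 1301 ± 182 (log2 fold change -1.31 ± 0.099, adjusted p = 4.13e-09). For these 6 genes the difference from WT did not pass.

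Other mitochondrial genes were lower as well. The share that fell was 25.1% of all genes tested, 43.7% of those at 300 to 1000 normalized counts and 54.2% of those over 1000. Whether the mitochondrial lists here and in the next paragraph fell beyond genes of their level was not tested. None of the 78 mitochondrial ribosomal protein genes rose and 46 fell (median -0.42 in BKO and -0.058 in WT), led by Mrpl54 at a log2 fold change of -0.90, Mrps18b at -1.22 and Mrpl42 at -1.26. Of 49 import and assembly genes 29 fell, among them the chaperonin genes Hspe1 at a log2 fold change of -1.30 and Hspd1 at -0.76 and the translocase gene Timm23 at -0.78. In complex I 19 of 38 nuclear subunits fell and 4 rose, in complexes II to IV 10 of 30 and 4, and in ATP synthase 7 of 19 and 3. Cox6a2, the muscle form of a cytochrome oxidase subunit, stood at 7301, 7489, 7741, 7637 and 6462 intact and 2920.3, 2114, 2365 and 3125 ligated (log2 fold change -1.49 ± 0.12, adjusted p = 6.58e-09). Ndufa12 fell (log2 fold change -0.93), Uqcrb (-0.86) and Usmg5 (-1.31), while Uqcrq rose by 0.73 and Atp5e by 0.69.

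Differences between genotypes passed as lower for 14, 15 and 10 genes of complex I, complexes II to IV and ATP synthase. Without ligated 4 and 5 they passed for 2, 2 and 3, where the count over all genes went from 737 to 269. Transcripts in these lists are short, with medians of 999.5, 833 and 1599 bases. With a transcript length trend removed, the count over all genes went from 737 to 475. The differences of Cox6a2 and Atp5e were then lost (adjusted p = 0.113 and 0.117), and counts for the 3 lists under that setting are not given here. In the tricarboxylic acid cycle 10 of 20 genes fell and 3 rose, with Suclg2 at a log2 fold change of -0.93, Idh3b at -0.65 and Mdh2, which rose, at 0.63. Of 27 peroxisome genes 12 fell and 4 rose (2 without ligated 4 and 5). Catalase (Cat) went from 1017 ± 54.5 to 441 ± 69.5 (log2 fold change -1.22 ± 0.13, adjusted p = 3.66e-07), and further than in WT (difference -0.67 ± 0.19, adjusted p = 0.0371, lost in 7 of 18 fits without 1 library, with p up to 0.0885). Of 26 antioxidant genes 12 fell and 1 rose, with the glutathione transferase Gsta4 at a log2 fold change of -1.83 and Gpx4 at -0.71.

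Of the carbohydrate genes, 6 of 17 in glycolysis (35.3%) and 10 of 17 in glycogen handling (58.8%) fell. Over all genes tested 25.1% fell, and 54.2% of those over 1000 normalized counts. Eno1, the enolase form of non-muscle and immature cells, rose from 415 ± 21.3 to 816 ± 79.7, and Eno3, the adult muscle form, fell from 29428 ± 1858 to 24466 ± 1408 (adjusted p = 0.00482, and 0.0788 without ligated 4 and 5). The glycogen-targeting phosphatase subunit Ppp1r3a fell (log2 fold change -0.75) and laforin (Epm2a) (-0.67). Fdft1, the squalene synthase at the entry to cholesterol synthesis, stood at 539.7, 596, 608, 651 and 572 intact and 209, 177, 169 and 184 ligated (log2 fold change -1.68 ± 0.10, adjusted p = 4.87e-10), where WT went from 519 to 369.6 (difference -1.20 ± 0.15, adjusted p = 1.96e-04). Of 21 cholesterol genes 4 fell and 2 rose. Slc1a5, a glutamine transporter, rose from 83.6 ± 34.7 to 333 ± 115, and Mthfd2, a mitochondrial folate enzyme, fell from 23.4 ± 7.99 to 5.72 ± 2.17.

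**Figure D3:**
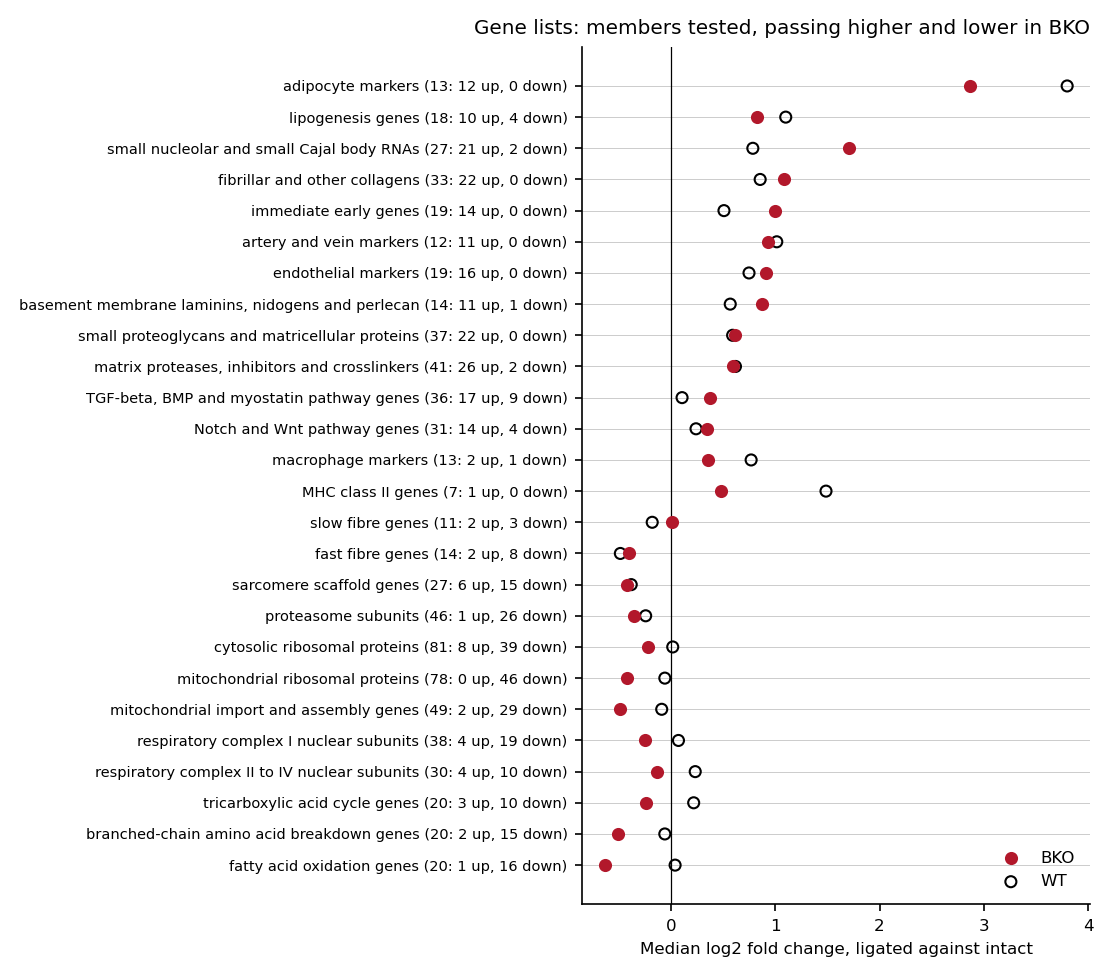
Median log2 fold change (x) of ligated against intact muscle over the tested members of 26 gene lists, in BKO (red) and WT (open), with members tested and passing in BKO in brackets. Adipocyte markers lie farthest right (2.87 in BKO), and fatty acid oxidation genes farthest left (-0.63 in BKO) with WT near 0.

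Many genes that make and break down protein were lower. The share that fell was 25.1% of all genes tested, 43.7% of those at 300 to 1000 normalized counts and 54.2% of those over 1000. It was 48.2% for cytosolic ribosomal proteins, 48.6% for aminoacyl-tRNA synthetases and 56.5% for proteasome subunits. Whether these lists fell beyond genes of their level was not tested. Of 81 cytosolic ribosomal protein genes 39 fell and 8 rose, and with a transcript length trend removed 29 fell and 15 rose. Rps26, of the small subunit, stood at 1022, 915, 1022, 869.9 and 825 intact and 373, 296, 301 and 376 ligated (log2 fold change -1.47 ± 0.098, adjusted p = 1.15e-09), with the groups well apart. Rps24 fell (log2 fold change -0.89) and Rpl35 (-0.89). These genes have many processed copies in the genome, so the split of their reads is uncertain. Differences from WT passed as lower for 12 of them, and for 0 without ligated 4 and 5. The elongation factor Eef1a1, the form that adult fibres replace, rose from 2159.5 ± 168 to 4197 ± 481 (log2 fold change 0.95 ± 0.075, adjusted p = 7.03e-09), while initiation factors such as Eif2s2 and Eif4g2 fell (log2 fold change -0.69 and -0.65). Of 37 aminoacyl-tRNA synthetases 18 fell, Aars (log2 fold change -0.96) and Sars (-0.80).

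The mitochondrial leucyl-tRNA synthetase gene Lars2 went the other way. It stood at 736, 296, 648, 257 and 151 intact and 1248, 2193, 857 and 1862 ligated (log2 fold change 2.03 ± 0.36, adjusted p = 1.18e-04), while WT went from 1462 to 884 (difference 2.77 ± 0.51, adjusted p = 0.00466). Its highest values were in ligated 4 and 6. Of 46 proteasome subunits 26 fell and 1 rose. Psmc3, an ATPase of the cap, stood at 1734, 1662, 1908, 1922 and 1560.1 intact and 972, 838, 925 and 979 ligated (log2 fold change -0.92 ± 0.086, adjusted p = 6.28e-08), and Psme1, of the interferon-inducible activator, fell from 352 ± 70.7 to 126 ± 12.04. Of 79 heat shock proteins and chaperonin subunits 33 fell and 7 rose (2 without ligated 4 and 5). Hsp90ab1 fell from 8188 ± 651 to 4163 ± 371 and Hspb6, a small heat shock protein of muscle, from 7120.1 ± 1734 to 2425 ± 595. The autophagy receptor Sqstm1 fell from 3909.8 ± 183 to 2069 ± 76.3 (log2 fold change -0.92 ± 0.064, adjusted p = 1.67e-09), and 15 of 33 autophagy genes fell.

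Most fast fibre genes of the contractile apparatus were lower. Of 14 fast fibre genes 8 fell and 2 rose (median -0.40). The share that fell was 57.1%, near the 54.2% of all genes over 1000 normalized counts. Tnnc2, fast troponin C, stood at 65652, 63778, 64437, 61822 and 55616 intact and 32458, 30781, 31757 and 32529.8 ligated (log2 fold change -0.96 ± 0.073, adjusted p = 4.13e-09), and Tnnt3 and Myl1 fell (log2 fold change -0.69 and -0.53). Myh4, the fastest myosin heavy chain, did not pass (-0.20, adjusted p = 0.199), while Myh1 fell from 99688 ± 36756 to 53842 ± 30691. The fast calcium pump Atp2a1 rose from 117070 ± 13230.1 to 170191 ± 17181 (log2 fold change 0.54 ± 0.11, adjusted p = 5.07e-04) and its slow relative Atp2a2 from 189 ± 26.6 to 575 ± 133 (log2 fold change 1.58 ± 0.15, adjusted p = 4.57e-08). Of 11 slow fibre genes 2 rose and 3 fell (18.2% and 27.3%), near the 22.1% and 25.1% of all genes tested. Myh7, the slow myosin heavy chain, stood at 22.2, 64.3, 27.6, 236 and 18.7 intact and 131, 202, 38.8 and 430.1 ligated and overlapped (adjusted p = 0.135). Its highest intact value was in intact 4, without which it passed (log2 fold change 2.27, adjusted p = 0.0417), and the slow fibre genes then stood at 5 higher and 2 lower.

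Of 12 developmental and stress sarcomere genes 5 rose and 3 fell. Their summed level, which the most highly counted member Xirp2 dominates, was 57455 to 81319 normalized counts in intact and 34164 to 43751 in ligated libraries. Xirp2, an actin-binding protein of the fibre's junctions, fell from 47832 ± 5459 to 24545 ± 2141, and Nrap, of myofibril assembly, from 13932 ± 2102 to 10376 ± 1704. Myh8, perinatal myosin, stood at 38.2, 32.7, 71.9, 48.6 and 118 intact and 319.8, 371, 276 and 263 ligated (log2 fold change 2.44 ± 0.30, adjusted p = 1.51e-06). Sarcolipin (Sln), an inhibitor of the calcium pump, rose from 5.29 ± 4.40 to 81.01 ± 7.71, Mybph from 171 ± 34.9 to 462 ± 91.5 and embryonic myosin Myh3 from 26.4 ± 19.6 to 77.1 ± 27.7. The rise of Mybph was smaller than in WT (difference -1.60 ± 0.33, adjusted p = 0.00807). Cardiac actin, Actc1, stood at 2268, 2902, 3005, 4629 and 2419.8 intact and 2682, 1523, 736 and 1950.3 ligated (log2 fold change -0.92 ± 0.32, adjusted p = 0.0221), with an overlap, and its call was lost without intact 4 (adjusted p = 0.0643), without ligated 5 (0.127) and without ligated 4 and 5 together (log2 fold change -0.36). In WT it stood at 227 ± 94.3 and 1259 ± 361, so BKO muscle started high where WT started low (difference -3.43 ± 0.45, adjusted p = 4.79e-04). Actc1 is near-identical to Acta1, so its share of actin reads is uncertain.

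Of 27 scaffold genes 15 fell and 6 rose. Ttn and Neb, the giant ruler proteins and among the most highly counted genes, fell (log2 fold change -0.51 and -0.49) (Ttn adjusted p = 0.00274, and 0.0571 without ligated 4 and 5), myotilin (Myot) (-0.99) and the methyltransferase Smyd1 (-0.93). Among 22 calcium handling genes 5 were higher (22.7%) and 9 lower (40.9%), where 22.1% and 25.1% of all genes tested were. Without ligated 4 and 5 these counts were 6 and 5. The channel Ryr1 rose by 1.07 and its regulator Fkbp1a by 0.96, both further than in WT. Triadin (Trdn) and junctophilin (Jph1) fell (log2 fold change -0.75 and -0.82). Of 21 genes of the dystrophin complex and membrane repair 7 rose (33.3%) and 5 fell (23.8%, and 3 genes without ligated 4 and 5). The share that fell was near that over all genes. Anxa1 rose by 1.81, Anxa2 by 1.13 and utrophin (Utrn) by 0.67, and Sgca fell (log2 fold change -0.69).

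Of 18 genes of the nerve contact and of denervation 6 rose and 3 fell, and of 17 satellite cell and myogenic genes 5 rose and 7 fell. Ncam1, which fibres show after loss of nerve contact, rose from 29.1 ± 3.29 to 105 ± 74.2 (adjusted p = 0.0216, and 0.101 without ligated 5), Runx1 from 31.8 ± 19.01 to 110.2 ± 18.99 and agrin (Agrn) from 75.6 ± 19.9 to 189 ± 27.5, while the receptor kinase Musk fell from 263 ± 50.9 to 125 ± 39.3. Myostatin (Mstn), the brake on muscle growth, stood at 315, 277, 314, 259 and 237 intact and 79.95, 96.9, 89.9 and 112 ligated (log2 fold change -1.56 ± 0.15, adjusted p = 1.09e-07), a smaller fall than in WT (difference 0.78 ± 0.22, adjusted p = 0.0371, lost in 12 of 18 fits without 1 library, with p up to 0.0813). The myogenic factors Six4 and Mef2c fell (log2 fold change -0.66 and -0.63). The stem cell factor Pax7 went from 19.3 ± 10.8 to 45.5 ± 5.71 (adjusted p = 0.00129), Myod1 from 175 ± 30.3 to 263 ± 11.9 (adjusted p = 0.00309) and Myog from 27.9 ± 6.60 to 41.8 ± 15.9 (adjusted p = 0.151, and 0.0171 without ligated 5). Of 20 atrophy genes 6 fell and 3 rose (1 without ligated 4 and 5), 30% and 15%, where 25.1% and 22.1% of all genes did. Fbxo32 (atrogin-1), a ubiquitin ligase of wasting muscle, stood at 3601, 5046, 3907, 3070.1 and 3068 intact and 1356, 1657, 1182 and 1526 ligated (log2 fold change -1.37 ± 0.14, adjusted p = 2.11e-07), and Trim63 stood at 2039 ± 358 and 1529.97 ± 126 (adjusted p = 0.00934). The adaptor genes Asb2 and Asb4 fell (log2 fold change -1.32 and -1.92).

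Signalling genes with a clear change included the growth factor Igf2, which stood at 90.7, 64.3, 172, 78.7 and 88.2 intact and 622, 719, 609 and 452 ligated (log2 fold change 2.66 ± 0.22, adjusted p = 1.10e-08). This rise was larger than in WT (difference 1.06 ± 0.31, adjusted p = 0.0466, lost in 14 of 18 fits without 1 library, with p up to 0.101). The binding proteins Igfbp3 and Igfbp7 rose by 1.54 and 0.91, while the glucose uptake genes Tbc1d1, Akt2 and Slc2a4 (the GLUT4 carrier) fell (log2 fold change -1.67, -0.85 and -0.76). Of 36 TGF-beta and BMP genes 17 rose and 9 fell: Tgfb1 rose by 1.58, Ltbp4, which stores the ligand in matrix, by 1.08 and Id3 by 1.29, while Tgfb3 fell (log2 fold change -1.06) and Smad3 (-0.68). Of 31 Notch and Wnt genes 14 rose and 4 fell, with Notch1 at a log2 fold change of 1.01 and Heyl at 0.999 up and Sfrp5, a Wnt antagonist, at -1.98 down. The cell cycle brakes Cdkn1a, Btg1 and Btg2 rose by 1.56, 1.45 and 1.20 and Ccng1 fell (log2 fold change -1.08), while the proliferation gene Rrm2 went from 5.31 ± 3.73 to 32.8 ± 15.6.

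Chromatin genes held some of the differences from WT. Kmt2d, an H3K4 methyltransferase, stood at 631, 458, 757, 689.9 and 945 intact and 2495, 2127, 1879 and 1541 ligated (log2 fold change 1.55 ± 0.17, adjusted p = 5.49e-07), where WT went from 1637 to 1462 (difference 1.70 ± 0.24, adjusted p = 9.33e-04). The demethylase Kdm6b rose by 1.25, further than in WT, and Kmt5a and Setd7 fell (log2 fold change -1.45 and -0.78). Of 66 such genes 8 had a higher and 1 a lower ligation effect in BKO than in WT, where 3.04% and 2.97% of all genes had. Of 105 splicing factors 20.95% rose and 21.9% fell, near the 22.1% and 25.1% of all genes tested. Their difference from WT passed as higher for 3 and lower for 1. Among them the muscle regulators Mbnl1, Rbfox1 and Rbm38 fell (log2 fold change -0.77, -0.997 and -1.91), and Hnrnpa0 and Srsf3 rose by 1.34 and 0.75.

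Small RNAs of the nucleus were higher in ligated BKO muscle. By GENCODE vM21 class, 26 of 33 small nuclear RNA entries rose and 0 fell (median 1.52 in BKO and -0.168 in WT), and 31 of 43 small nucleolar RNAs rose and 4 fell. Among the 33 entries 20 had different values in these libraries, the rest being copies with identical values, and 14 of the 20 rose. Without ligated 4 and 5, 12 small nuclear and 26 small nucleolar RNAs rose. Snora74a, which guides a base change in ribosomal RNA, stood at 275, 282, 248, 288 and 385 intact and 843, 1639, 1379.8 and 1160.1 ligated (log2 fold change 2.06 ± 0.17, adjusted p = 9.00e-09). Scarna6, of Cajal bodies, rose from 47.8 ± 6.46 to 219 ± 48.2, Scarna10 from 530.2 ± 72.01 to 1656 ± 387 and Rnu3a, of ribosomal RNA processing, from 22.6 ± 4.39 to 153 ± 44.00. Neat1, the scaffold RNA of paraspeckles, rose from 5844 ± 1018 to 12336 ± 3706, and further than in WT (difference 0.95 ± 0.27, adjusted p = 0.0444, lost in 14 of 18 fits without 1 library, with p up to 0.101), and the imprinted RNA Meg3 rose from 82.3 ± 10.1 to 231 ± 43.99. Of 223 processed pseudogenes 7 rose (4 without ligated 4 and 5) and 76 fell.

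Of the 13 protein genes of the mitochondrial genome 7 fell and 3 rose. mt-Nd1, of complex I, fell (log2 fold change -1.53 ± 0.11, adjusted p = 1.49e-09), as did mt-Atp6 and mt-Atp8, of ATP synthase (-1.70 and -1.08), and mt-Co1, of cytochrome oxidase (-0.82). The 3 that rose were mt-Co2, mt-Co3 and mt-Nd4l. The means of mt-Co1 were 603573 intact and 341713 ligated, far above the values of mt-Co2 and mt-Co3 given next. The mitochondrial pseudogene Gm28437, whose reads cannot be told from those of the mitochondrial genome, had means of 260005 and 191398. The split of reads among these genes is therefore uncertain, and whether it bears on those 3 rises was not tested. mt-Co2, of cytochrome oxidase, stood at 0, 552, 0, 146 and 0 intact and 361, 221, 350.3 and 471 ligated (log2 fold change 5.15 ± 1.76, adjusted p = 0.0204), an overlap in which 3 intact libraries are at 0, so the size of this fold change depends on the pseudocount. Its call was lost without any 1 of intact 1, 3 and 5 (adjusted p up to 0.0583), without ligated 4 and 5 (0.0808), and with edgeR (log2 fold change 1.41, adjusted p = 0.287) or DESeq2 (1.35, 0.666) on the recovered reads. mt-Co3 stood at 1278, 855, 683, 1292 and 1793 intact and 3296, 3215, 3404 and 5868 ligated (log2 fold change 1.77 ± 0.43, adjusted p = 0.00199), and mt-Nd4l rose from 1043 ± 306 to 3192 ± 1891 (log2 fold change 1.46 ± 0.30, adjusted p = 4.79e-04). The log2 fold change of mt-Nd4l was 0.68 without ligated 4 and 5 (adjusted p = 0.0397), and its difference from WT (1.65 ± 0.42, adjusted p = 0.0254) was lost in 3 of 18 fits without 1 library, with p up to 0.0621. The ribosomal RNAs mt-Rnr2 and mt-Rnr1 rose by 0.64 and 0.46 (log2). Both of those calls were lost without ligated 4 and 5 (log2 fold change 0.24 and 0.062), and without ligated 4 or ligated 5 alone (adjusted p up to 0.0728 and 0.172). That of mt-Rnr1 was also lost without any 1 of intact 1 to 4.

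Transcript length moved with the change in BKO and not in WT. In 5 equal groups of genes by the length of their longest GENCODE vM21 transcript, the median log2 fold change rose from -0.181 in the shortest to 0.195 in the longest in BKO, and was between -0.0174 and 0.0112 in every such group in WT. Spearman's rho between length and log2 fold change over 12188 genes was 0.198 in BKO and 0.00971 in WT, a description across genes, which are not independent. In the shortest group 354 genes rose and 834 fell, and in the longest 830 rose and 425 fell. With a length trend taken out of each library these became 514 and 578, and 587 and 663.

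**Figure D4:**
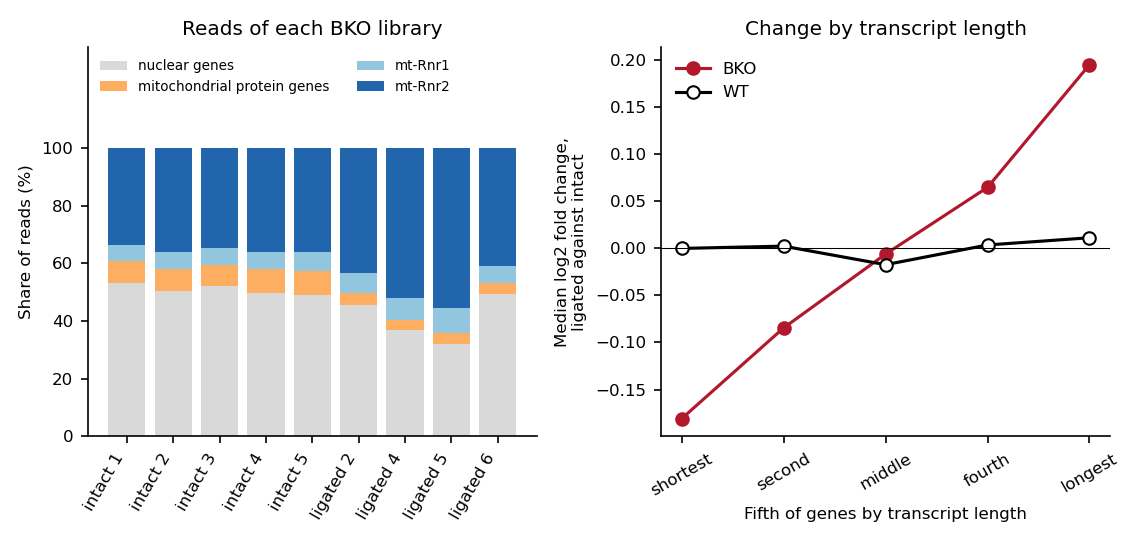
Left, the share of each BKO library's reads from nuclear genes, mitochondrial protein genes and the 2 mitochondrial ribosomal RNAs (y, percent). Right, median log2 fold change of ligated against intact muscle by group of transcript length in BKO (red) and WT (open). mt-Rnr2 takes most in ligated 4 and 5, and the BKO medians climb with length, from -0.181 to 0.195.

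The BKO and WT effects of ligation, which share no library, were correlated. Over the 12262 genes the log2 fold changes had a Pearson r of 0.752 and a Spearman rho of 0.713, a description across genes, and 76.4% had the same sign. Ligation changed 4880 genes in WT (39.8%). The genes higher in both were 1510, which is 55.7% of those higher in BKO and 65.8% of those higher in WT, and 1849 were lower in both, 60.1% and 71.5%. In opposite directions 63 genes passed. Of the 2368 genes that passed in BKO and not in WT, 339 also passed the test of the difference itself, so a call in 1 genotype alone did not mark a difference for the rest.

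The difference between the genotypes passed for 737 genes (6.01%), 373 with a higher effect in BKO (3.04%) and 364 with a lower one (2.97%), and 2658 had an unadjusted p under 0.05. Without ligated 4 and 5 it passed for 269, and leaving out 1 library at a time gave 402 (without WT ligated 2) to 1015 (without BKO ligated 6). Of 73 differences that passed for genes named here 49 passed in every fit without 1 library, and of those 49 the differences of Ccrl2, Decr1, Epm2a, Etfdh, Mybph, Slc25a34 and Thbs1 were lost without ligated 4 and 5 together (adjusted p 0.0529, 0.0503, 0.129, 0.0644, 0.0615, 0.0753 and 0.0817). Car3, a carbonic anhydrase of fat and slow muscle, had the smallest p: BKO muscle went from 1426 ± 163 to 5957 ± 809, and WT from 16166 ± 2429 to 21294 ± 2836 (difference 1.66 ± 0.17, adjusted p = 4.96e-05). It stayed below WT in both limbs. The others with the most certain higher effect were Sorbs2, Ccnk, Adamts1, Kmt2d, Slc38a4, Aebp1, Map3k7cl, Zfhx3 and Hr. For Sorbs2 and Slc38a4 both genotypes fell and BKO fell less, with a log2 fold change of -0.80 against -2.16 for Sorbs2 and -1.09 against -2.64 for Slc38a4. For the cyclin gene Ccnk BKO did not change (-0.075, adjusted p = 0.655) and WT fell (log2 fold change -1.42). The matrix protease Adamts1 rose by 0.54 in BKO and fell (log2 fold change -0.82) in WT, and the fibroblast gene Aebp1 had a log2 fold change of 0.80 in BKO and -0.62 in WT.

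The 10 with the most certain lower effect were Fdft1, Actc1, Bckdha, Lrtm1, Amy1, Tcap, Selenop, Iscu, Ephx2 and Prdx6. Angptl4, an inhibitor of lipoprotein lipase and a PPAR target that was chosen after its values were seen, stood at 80.9, 72.7, 47.3, 50.2 and 148 intact and 18.99, 63.8, 29.6 and 42.6 ligated in BKO, an overlapping fall (log2 fold change -1.03 ± 0.34, adjusted p = 0.016, and 0.0807 without ligated 2 or 0.0518 without intact 5), where WT rose from 5.89 to 40.2 (difference -3.60 ± 0.48, adjusted p = 4.79e-04). Telethonin (Tcap), the cap of titin at the Z-disc, fell from 6268 ± 452 to 3845 ± 853 (log2 fold change in WT 0.19), the selenium carrier Selenop from 1415 ± 122 to 935 ± 50.4 (WT 0.13), the iron-sulphur scaffold Iscu from 729.5 ± 45.6 to 525 ± 49.5 (WT 0.25) and the lipid epoxide hydrolase Ephx2 from 251 ± 18.1 to 107 ± 5.13 (WT -0.32). Lrtm1, a leucine-rich repeat membrane protein gene, fell (log2 fold change -1.69 against -0.33 in WT), as did the peroxiredoxin Prdx6 (-0.61 against 0.37).

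**Figure D5:**
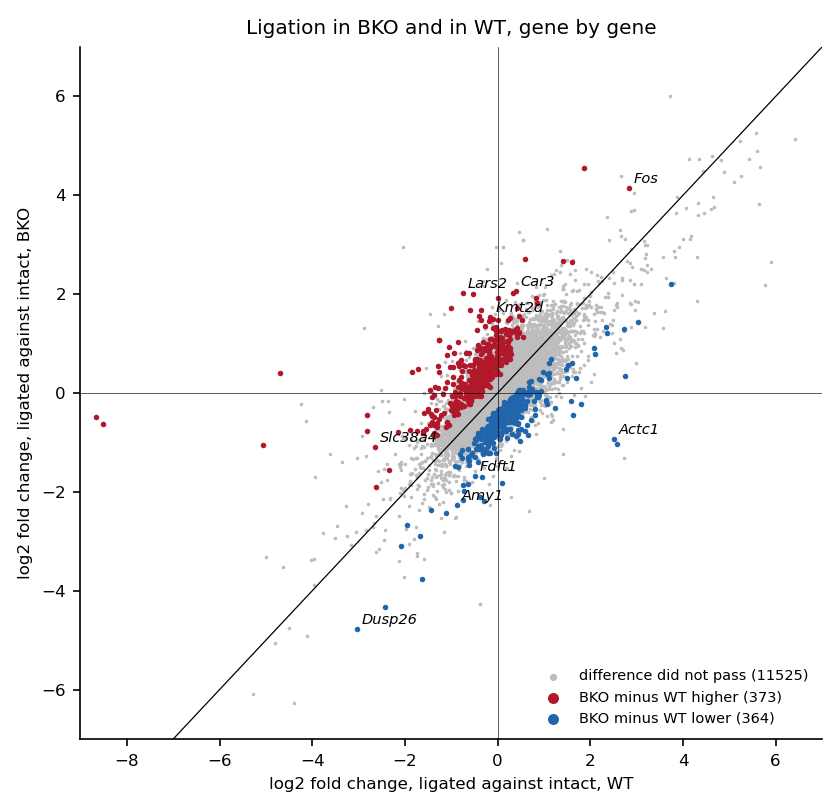
Each point is a gene, placed by its log2 fold change of ligated against intact muscle in WT (x) and BKO (y); the diagonal marks equal change. Grey points (11525) had no passing difference, red points (373) a higher and blue points (364) a lower effect in BKO; Actc1, Car3, Lars2 and Kmt2d lie far off the diagonal, and the 2 red points farthest left are the small nuclear RNA copies Gm26244 and Gm24924, whose split of reads is uncertain.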

How the data were processed

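Total RNA of tibialis anterior was sequenced with a stranded total RNA kit, per the labels. The submitters' processing notes list RSEM 1.3.3, Trimmomatic 0.33, STAR 2.5.2, DESeq2 and mm10. For the step from reads to gene counts, annotation and strand were not given in the sources used here. As for the values, the authors deposited 1 table of normalized counts, a depth-scaled signal per gene and not raw counts. Within a tolerance of 0.001, 100% of its values were whole reads divided by 1 size factor per library, so the reads and their totals could be recovered. They were used only for depth and for edgeR 4.0.16 and DESeq2 1.42.0 as alternatives.

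Genes with a mean of at least 10 over the 18 libraries were fitted with limma 3.58.1 (R 4.3.3, eBayes with a trend) after taking log2 of the normalized count plus a pseudocount of 1, with a mean for each of the 4 groups and Benjamini-Hochberg adjustment over 12262 genes, called at 0.05. A fold change on this scale understates the change of low genes. The difference between genotypes was the contrast of the 2 ligation effects. The script was tested on simulated data. Single values per library were compared with an exact permutation test. Whether libraries came from separate mice is not stated, so a p-value reflects only how these samples vary. Replicates within the BKO groups differed by more than counting error, with a chi-square of 7.9 to 151.8 for each degree of freedom.

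Symbols, positions and transcript lengths came from GENCODE vM21 (20643 of 20922 genes, 12188 of those tested), and promoters from RefSeq (9173 of the tested genes). The members and gene lists were chosen with earlier results of these data known. Genes were named by rule: the 25 largest rises and falls with an adjusted p under 0.05, no overlap and a mean of at least 50 over the 9 BKO libraries, up to 4 members of a list by p or the gene a paragraph is about, the 10 most certain differences in each direction with a mean of at least 50 over the 18 libraries, the 10 highest means, and Arntl. A list is described by its counts and median beside all genes, with no set test. Alternatives covered the pseudocount, filter, scaling, test, a replicate block and leaving out libraries. All columns of the table matched a sample. Some genes that the rule would name are not reported here.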

Additional observations from a re-analysis of the deposited data

Results flagged for a closer look

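In 10 of 80 groups of 4 or 5 values looked at, 1 library lay far from the others by Dixon's test, where chance gives about 5%. Intact BKO libraries held 6 of these. They were the high Cd74 count of 655 in intact 5, the high Igf2 count of 172 in intact 3, the high Myh7 count of 236 in intact 4, the high count of 143038 for ENSMUSG00000045999 in intact 4, the high mt-Co2 count of 552 in intact 2 and the low Slc25a20 count of 364.5 in intact 1. In the ligated BKO libraries these were the Dach2 count of 1.02 in ligated 5, the low Ighm count of 242 in ligated 5, the high mt-Co3 count of 5868 in ligated 6 and the depth of 25.6 M reads in ligated 5.

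The ligation effect differed between BKO and WT, by the test of the difference itself, for 737 genes and, among the genes named, for the following, with the BKO minus WT difference on the log2 scale in brackets. The effect was higher in BKO for Adamts1 (1.36), Aebp1 (1.43), Arntl (2.21), Car3 (1.66), Ccnk (1.34), ENSMUSG00000045999 (2.68), Eif4g2 (0.40), Fkbp1a (0.94), Fos (1.31), Gm24924 (7.87) and Gm26244 (8.17). It was also higher for Hr (1.04), Igf2 (1.06), Kdm6b (1.21), Kmt2d (1.70), Lars2 (2.77), Map3k7cl (2.04), Mstn (0.78), Neat1 (0.95), Per1 (1.21), Rnu3a (1.26) and Ryr1 (1). Further genes with a higher effect were Slc38a4 (1.55), Sorbs2 (1.36), Thbs1 (0.97), Zfhx3 (1.46) and mt-Nd4l (1.65). The effect was lower in BKO for Acads (-0.77), Acadvl (-0.78), Actc1 (-3.43), Amy1 (-1.40), Angptl4 (-3.60), Atp5e (-0.46), Bckdha (-0.91), Bckdk (-0.76), Cacng7 (-1), Cat (-0.67) and Ccrl2 (-1.25). It was also lower for Cd24a (-0.70), Cox6a2 (-0.65), Dbt (-0.89), Decr1 (-0.75), Dusp26 (-1.73), Ephx2 (-0.90), Epm2a (-0.47), Etfdh (-0.73), Fdft1 (-1.20), Gsta4 (-1.20) and Homer2 (-1.22). Further genes with a lower effect were Hspe1 (-0.67), Iscu (-0.73), Lrtm1 (-1.37), Lyz2 (-0.96), Mbp (-0.93), Mrpl42 (-0.68), Mthfd2 (-1.92), Mut (-0.52), Mybph (-1.60), Pccb (-0.53) and Ppm1k (-0.66). The next with a lower effect were Ppp1r1a (-1.89), Prdx6 (-0.99), Psme1 (-0.83), Rps26 (-0.55), Selenop (-0.72), Slc25a20 (-1.03), Slc25a34 (-1.72), Smyd1 (-0.43), Suclg2 (-0.74), Tcap (-0.91) and Tspan8 (-0.92). The remaining lower ones were Uqcrb (-0.45) and Usmg5 (-0.53). Of these 73 differences, 24 lost their call in at least 1 of 18 fits without 1 library: Atp5e (3), Cacng7 (5), Cat (7), Cox6a2 (4), ENSMUSG00000045999 (14), Eif4g2 (1), Fos (8), Gm24924 (5), Gm26244 (1), Igf2 (14), Lyz2 (13), Mbp (1), Mrpl42 (13), Mstn (12), Neat1 (14), Ppp1r1a (8), Psme1 (1), Rnu3a (9), Rps26 (3), Smyd1 (10), Tspan8 (4), Uqcrb (7), Usmg5 (9) and mt-Nd4l (3), with the number of fits in brackets.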

How the results depend on the processing

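Each count was recomputed with pseudocounts of 0.5 and 5, no filter on low values or a mean of at least 50, TMM or nuclear-gene median scaling, library weights, edgeR or DESeq2 on the recovered reads, and a fit of the 9 BKO libraries alone. Removing a transcript length trend, or length and GC trends, was added after seeing the data. The counts of genes higher and lower in ligated BKO muscle stayed within 1.5 times of 2713 and 3077 throughout. They ran from 1810 (without ligated 4 and 5) to 2983 (no filter) and from 2240 to 3080, and leaving out 1 library gave 2298 to 2691 and 2729 to 3060. The count of genes whose ligation effect differed between genotypes, 737, was 1158 with DESeq2, 475 with the length trend removed, 434 with length and GC trends removed and 269 without ligated 4 and 5, and leaving out 1 library gave 402 to 1015. The cause was not tested. Of 374 results for named genes 313 kept their direction and side of the threshold under every alternative that gave a value. Of 9153 values under alternatives 339 lost the call and 6 gained it. The changes of Rn7s1 and Rn7s2, near 0 as deposited, became -0.435 and -0.441 with length and GC trends removed.

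The labels number the muscles. With the replicate number as a block, 2177 genes were higher, 2490 lower and 382 differed between genotypes, and for WT ligation 4434 passed. Same-numbered BKO muscles did not deviate together (r = -0.028, -0.064 and 0.024 over genes), nor did same-numbered WT muscles (-0.046 to 0.048). The main fit took no pairs. Correlations over so few libraries cannot show that limbs of the same mouse are absent, since both muscles of a mouse were taken. Of the results for named genes 30 did not pass with the block, among them the ligation changes in BKO of Angptl4, Arntl, H2-DMb1, Lyz2, Myh3, Trim63 and mt-Co2 (adjusted p 0.0505, 0.108, 0.187, 0.518, 0.0546, 0.121 and 0.233), and the other 23 were differences from WT. Depth limits the genes under the mean of 10, which were not tested.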

Other observations

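Several gene families and cell type lists not described above had members that changed in ligated BKO muscle. Over all genes tested 22.1% rose and 25.1% fell. Some lists lay near these shares, among them ubiquitin ligase adaptors (18.09% and 30.85%), tubulins, kinesins and dyneins (17.78% and 31.11%) and lysosomal genes (17.07% and 21.95%). For such lists the counts are not a result about the family. The members named have the smallest p of their list or are a defining gene. Of 16 S100 proteins and annexins 11 rose and 1 fell, S100a6 by 1.27 and S100a10 by 0.91 on the log2 scale, while S100a1, the form of striated muscle, fell from 1008 ± 77.4 to 510.4 ± 67.2. Of 14 serpins and plasma protease inhibitors 8 rose, with Serpina3c going from 4.74 ± 3.12 to 25.6 ± 14.5. Of 15 named long noncoding RNAs 7 rose and 0 fell, and Rian, which lies in the same imprinted cluster as Meg3, rose by 1.52 (log2). Of 79 RNA polymerase II, general factor and Mediator genes 26 fell, Taf12 and Taf9b with log2 fold changes of -0.91 and -1.23, and 5 rose, among them the large subunit Polr2a at 0.98. Of 45 tubulins, kinesins and dyneins 14 fell and 8 rose. Tuba8, an alpha-tubulin of muscle and testis, fell from 2132 ± 225 to 595 ± 121 (log2 fold change -1.86 ± 0.13, adjusted p = 1.70e-09, limma with Benjamini-Hochberg adjustment).

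Of 64 translation factors 32 fell and 9 rose. Of 37 Slc25 carriers 12 fell and 7 rose (1 without ligated 4 and 5), the iron carrier Slc25a28 among those that fell (log2 fold change -1.33). In the creatine and purine nucleotide cycle the muscle AMP deaminase Ampd1 and the creatine kinase Ckm fell (log2 fold change -0.97 and -0.72), while Ampd3, the erythrocyte form, rose by 1.25. Of 41 lysosomal genes 9 fell, led by Ctsd, and 7 rose. Of 94 ubiquitin ligase adaptors 29 fell and 17 rose, Fbxl4 with a log2 fold change of -1.70. Of 314 genes named Zfp 40 rose (17 without ligated 4 and 5) and 59 fell, against 2713 and 3077 of 12262 genes in all. Of 7 lymphatic markers 2 rose, Prox1, their defining factor, by 1.37 (log2). Of 14 chemokines and receptors 5 rose, Cx3cl1 by 1.67 (log2), and of 24 interleukins and receptors 7 rose and 4 fell, with Il12a going from 17.5 ± 3.74 to 2.78 ± 3.48. Of the mast cell and neutrophil markers 4 were tested, with a median log2 fold change of -0.24. Kit, which rose by 1.65 (log2), was the only 1 of them with a positive change.

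The gene ENSMUSG00000045999, which has no symbol or position in the annotation used, stood at 32243, 13896, 39853, 143038 and 9500.3 normalized counts in the intact and 696458, 1110270, 364575 and 862880 in the ligated BKO libraries (log2 fold change 4.55 ± 0.54, adjusted p = 1.30e-06). The intact values spread over more than 10-fold, and every ligated value lay above them. In WT it went from 116312 to 428971, with a difference between genotypes of 2.68 ± 0.77 (adjusted p = 0.0421, lost in 14 of 18 fits without 1 library). Among the 10 genes with the highest mean, Rn7s1 and Rn7s2, near-identical RNAs of the signal recognition particle, did not pass (log2 fold change 0.0068 and 0.0013). The mitochondrial pseudogene Gm28437 fell (log2 fold change -0.45), and its reads cannot be told from those of the mitochondrial genome.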
